A study of Sus scrofa with 24 samples.

Results

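The solute carriers are the proteins that move sugars, lactate, amino acids, metals, nucleotides and inorganic ions across the cell surface and the membranes of mitochondria and other organelles, and their genes carry symbols made of SLC, a family number and a member number. They were read out here in longissimus dorsi, the main loin muscle, of pigs fed different fats. Members were taken by symbol alone: probe sets whose platform annotation gave exactly 1 symbol that starts with SLC and a digit, with 1 probe set per gene, that of the highest mean signal over all arrays. This gave 118 genes, from 173 probe sets, of the 6765 genes that the array names with 1 symbol; 2 further symbols were not analysed here. Of the 118 genes, 83 passed the filter on low signals and were tested, and 35 lay below it. The symbols of 3 members, SLC2A4RG, SLC9A3R1 and SLC9A3R2, name a regulator of a carrier gene and scaffold proteins rather than carriers. They form a class of their own but stay in the counts over all members.

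The study fed 4 fats at 3.0% of the feed to crossbred pigs (Landrace × Large White × Duroc). There were 24 arrays, 1 per pig. Pigs weighed about 71 kg at about 130 days of age when allotted. The groups were gilts, which are young females, and barrows, which are castrated males, fed soybean oil, olive oil, coconut oil or beef tallow, with 3 pigs in each of the 8 combinations. Each fat therefore had 6 pigs and each sex 12, no group was fed without an added fat, and gilts carry the running numbers 1 to 12 in the labels and barrows 13 to 24. Anything that followed this numbering cannot be told apart from sex. The labels place 3 pigs in each of 24 pens, but which pen a sampled pig came from was not known here, and no p allows for pens.

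Muscle takes up glucose through the carriers of the SLC2 family, with SLC2A4 (GLUT4) as the one that insulin and contraction bring to the surface, and it releases lactate through SLC16A3 (MCT4). Inside the fibre, the SLC25 family connects the cytosol with the mitochondrial matrix: SLC25A4 exchanges ADP for ATP, SLC25A3 brings in phosphate and SLC25A12 exchanges aspartate for glutamate. SLC6A8 supplies creatine, which buffers ATP in fast contracting muscle.

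Precision is set by the number of pigs, since arrays give no counts. Array medians lay between 139 and 174 signal units, and mean correlations of log2 signals with the other arrays lay between 0.907 (pig 12) and 0.951. The tissue label was borne out by 7 of 11 skeletal muscle markers that the array names, all 7 above the filter, with a summed signal between 195963 and 341741 over the pigs; none of them and none of 7 slow fibre markers was called in any pair of fats or between the sexes. All 7 slow fibre markers had negative differences between barrows and gilts, from -0.24 for TNNC1 to -0.05 for MYL2 (median -0.15 beside -0.02 over all tested probe sets), and their part in the sex differences of the carriers was not tested. Markers of fat cells and of fibroblasts did differ between groups, as given beside the results below. In whole muscle, fewer cells of a type and less RNA per cell cannot be told apart.

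Sex gave the solute carrier genes that passed a test. In barrows, SLC22A3, a carrier of organic cations at the cell surface, fell 2.63-fold and SLC41A1, a magnesium carrier, fell 1.63-fold against gilts, while SLC16A3, the lactate exporter, rose 1.71-fold, SLC26A6, an exchanger of chloride and other anions, rose 1.55-fold and SLC31A2, a copper carrier of internal membranes, rose 1.43-fold. These were 5 of 83 tested members (6.02%) at an adjusted p under 0.05 with limma. Over all tested probe sets 4.77% were called in this comparison, so the share among members lay near the background. The members split into 3 higher and 2 lower, beside 2.26% of all tested probe sets higher and 2.51% lower. At an unadjusted p under 0.05 there were 17 members (20.5%), beside 21.1% of all tested probe sets.

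The signal of SLC22A3 in gilts had a lowest, median and highest value of 126, 436 and 777, and in barrows these were 67.4, 151 and 300.1. The barrows were low: 12 of 12 lay below the gilt mean and 8 gilts lay above every barrow, but the groups overlapped through gilts 2, 5, 7 and 9. The log2 difference, barrow minus gilt, was -1.39 ± 0.27 (SE, 12 pigs per sex; limma adjusted p = 0.00703). It was -0.46 on beef tallow, -1.64 on coconut oil, -2.28 on olive oil and -1.19 on soybean oil, with 3 pigs per sex in each.

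The metals, a class of 13 tested genes, held a call in each direction. SLC41A1 had signals of 404, 770 and 1654 in gilts (lowest, median, highest) and of 374, 467 and 542 in barrows. Barrows kept to a narrow range, and 9 gilts lay above all 12 barrows. The difference was -0.71 ± 0.17 on the log2 scale (limma adjusted p = 0.023), and its sign was the same on 4 of 4 fats. The array holds 3 other probe sets of this gene, whose differences were -0.65, -0.49 and -0.26 (limma adjusted p = 0.0297, 0.0602 and 0.324). SLC31A2 had signals of 306, 393 and 558 in gilts and of 382, 567 and 810.0 in barrows. Barrows were high, 5 gilts lay below every barrow, and the difference of 0.51 ± 0.11 passed (limma adjusted p = 0.0117). A weaker probe set of SLC31A2, below the filter, differed by 0.65. Of the other 11 metal carriers none passed, and the class median was 0.05 beside -0.02 over all tested probe sets.

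SLC26A6 had signals of 152, 223 and 364 in gilts and of 209.6, 381 and 491 in barrows. The groups overlapped, with 6 gilts below every barrow, and the difference was 0.63 ± 0.16 (limma adjusted p = 0.0317). It was the call among 5 tested genes for inorganic ions and acid-base balance. SLC4A4, a sodium bicarbonate cotransporter, and SLC12A4, a potassium chloride cotransporter, differed by 0.54 ± 0.21 and -0.37 ± 0.13 without passing (limma adjusted p = 0.136 and 0.118), and both passed with array weights (0.0401 and 0.0339).

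SLC16A3 had signals of 76.8, 193 and 409 in gilts and of 189, 349 and 569 in barrows. Barrows lay high, 11 of 12 above the gilt mean, and the difference was 0.78 ± 0.21 (limma adjusted p = 0.0366), from 0.48 on coconut oil to 1.48 on olive oil. The other tested member of its family, SLC16A13, differed by -0.06.

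**Figure D1:**
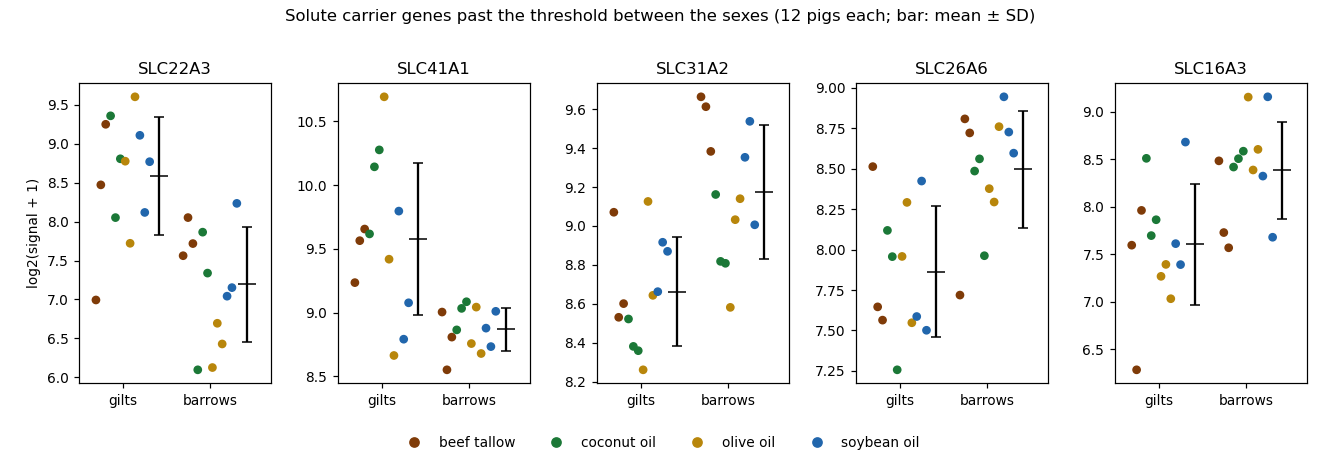
Log2(signal + 1) of the 5 solute carrier genes past the threshold between the sexes. Each point is a pig (12 gilts, 12 barrows), its colour gives the dietary fat, and the bars show the mean ± SD of each sex. Barrows sit lower for SLC22A3 and SLC41A1 and higher for SLC31A2, SLC26A6 and SLC16A3, with overlap in each panel.

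Calls for sex depended on the signal filter, on the probe sets used and on which pigs were kept. Without the filter SLC22A3 and SLC31A2 passed, while SLC41A1, SLC26A6 and SLC16A3 did not (limma adjusted p = 0.0611, 0.0789 and 0.0902). With the mean of its probe sets SLC31A2 did not pass (limma adjusted p = 0.0774). SLC22A3, SLC31A2 and SLC41A1 passed in all 24 runs that left out 1 pig. SLC16A3 was lost in 13 of these runs (without pig 3, 4, 5, 6, 8, 12, 13, 14, 15, 16, 17, 22 or 23) with adjusted p up to 0.0703. SLC26A6 was also lost in 13 (without pig 3, 4, 6, 8, 10, 11, 12, 13, 14, 15, 21, 22 or 24) with adjusted p up to 0.0636. The count was 3 without pig 3, 4, 6, 12, 13, 14 or 22. Without the 3 arrays that correlated least with the others (pigs 11, 12 and 16) 4 of the 5 genes passed, and SLC16A3, with a difference of 0.78, did not (limma adjusted p = 0.0515).

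With all pigs, no carrier of the hexose class was called between the sexes, although 12 of 12 tested members had negative differences with barrows on the low side, also after quantile normalization or centring of each array on its median. These are averages over the fats, and only SLC2A3, SLC5A6 and SLC5A10 kept the sign on 4 of 4 fats. SLC2A12, SLC45A3 and SLC5A4 kept it on 2. Barrows were higher for SLC2A4 and SLC2A5 on olive oil (0.37 and 1.17) and for SLC2A1 and SLC2A8 on soybean oil (0.37 and 0.57). Over all members 38 of 83 differences were positive, beside 47% of all tested probe sets. The class median was -0.27, from -0.84 for SLC2A3 to -0.05 for SLC2A12, both glucose carriers. SLC2A3 had signals of 207, 462 and 1307 in gilts and of 121, 255 and 591 in barrows (limma adjusted p = 0.0876). SLC5A6, which belongs to the class by its family number but carries biotin and pantothenate, differed by -0.55 ± 0.18 (limma adjusted p = 0.0834), and its median signal was 739 in gilts and 440.4 in barrows. SLC2A4 differed by -0.30 ± 0.18 and SLC2A1, the glucose carrier of most cell types, by -0.28 ± 0.21 (limma adjusted p = 0.342 and 0.476). Some members of the class did pass in other runs: SLC2A3 and SLC5A6 with array weights (limma adjusted p = 0.038 and 0.0208), SLC5A6 also without pig 2 or pig 7 (0.0317 and 0.0108), and SLC5A10 without pig 8 (0.0409).

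Beside these sex differences, 1 of 6 tested fat cell markers, LIPE, was called lower in barrows and the list median was -0.66, while LEP went the other way (0.22). Of all tested probe sets 2.51% were called lower in barrows, with a median difference of -0.02. The summed signal of the 6 markers lay between 8167 and 43468 in gilts (median 17749) and between 6385 and 28989 in barrows (median 11445), and none of the 6 lay below the filter. None of 7 fibroblast markers was called between the sexes (median 0.07). The part of fat cells in the carrier differences was not tested.

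With all pigs, mitochondrial carriers and amino acid carriers gave no call between the sexes. Of 17 tested SLC25 genes, 10 differences were positive and the median was 0.01. The smallest p belonged to SLC25A37, the iron carrier mitoferrin 1, with a difference of 0.28 ± 0.09, and to SLC25A33, a pyrimidine nucleotide carrier, with -0.46 ± 0.16 (limma adjusted p = 0.0887 and 0.109). SLC25A12 differed by 0.30 ± 0.12 and SLC25A4 by 0.05 ± 0.09. Among 10 tested amino acid carriers, SLC3A1, the heavy subunit of a cystine carrier, differed by 0.43 ± 0.14 (limma adjusted p = 0.0902), SLC1A1, a glutamate carrier, by 0.37 ± 0.16 (0.184), and the median was -0.05. SLC22A5, which takes up carnitine, differed by -0.42 ± 0.15 (limma adjusted p = 0.102). In other runs SLC25A33 and SLC25A37 passed with array weights (limma adjusted p = 0.0401 and 0.0453), SLC25A33 without pig 7 (0.0295) and SLC25A37 without pig 9 (0.0399). SLC3A1 passed with the mean of its probe sets (0.00953) and without pig 20 (0.0307), SLC1A1 without pig 15 (0.0163) and SLC22A5 without pig 1 (0.0306), all by limma. The scaffold SLC9A3R2 differed by -0.35 with all pigs (limma adjusted p = 0.152) and by -0.46, past the threshold, without pig 24 (0.0212).

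No solute carrier gene passed in any of the 6 pairs of fats, in olive and soybean oil averaged against coconut oil and beef tallow, in the F test over the 4 fats or in that of the fat by sex interaction. In coconut oil minus beef tallow, the pair with calls elsewhere on the array, 1.12% of all tested probe sets passed with limma and 0 of 83 tested members did. There were 12 members (14.5%) at an unadjusted p under 0.05 beside 19.8% of all tested probe sets. Signs were mixed, 38 positive (45.8%, beside 44.6% of all tested probe sets) and 45 negative, with a median of -0.06 beside -0.04 over all tested probe sets. With arrays centred on their medians, this pair shifted by 0.126 over all tested probe sets and 50 members were positive. None of the genes below passed, and the signs of SLC25A30, SLC25A1, SLC25A17 and SLC45A3 held under that centring and under quantile normalization.

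**Figure D2:**
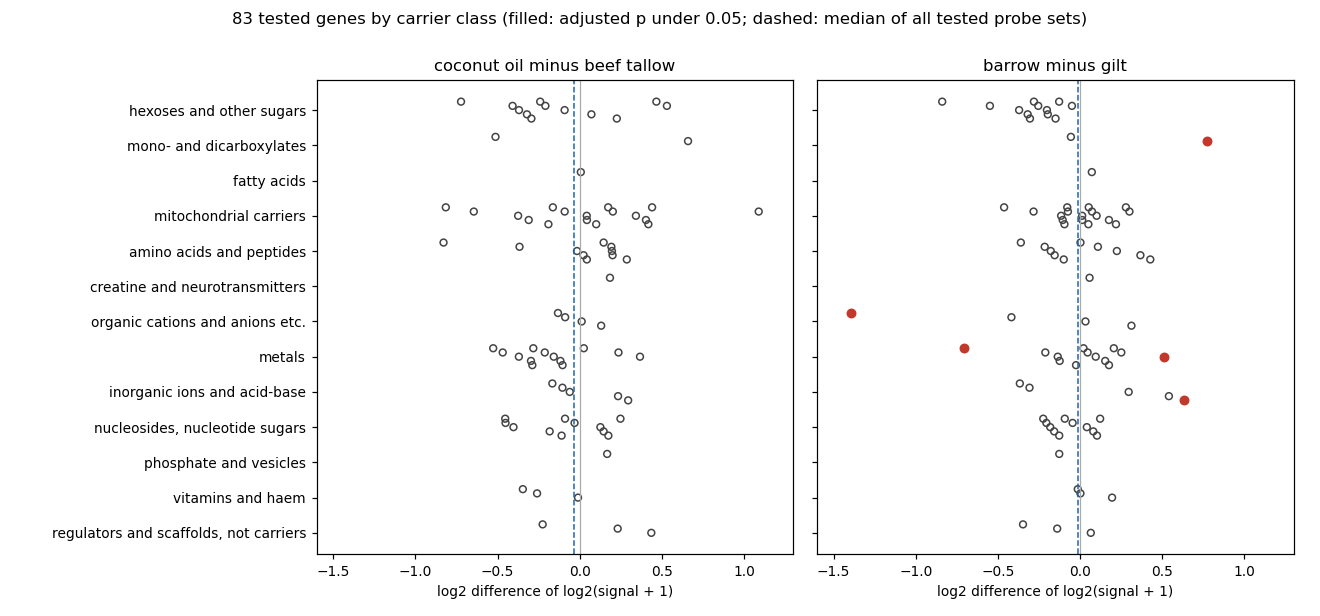
Log2 differences of the 83 tested genes by carrier class for barrow minus gilt (right) and for coconut oil minus beef tallow (left). Each point is a gene, filled where the adjusted p was under 0.05 (0 genes on the left, 5 on the right), and the dashed line marks the median of all tested probe sets (-0.04 and -0.02).

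SLC25A30, a mitochondrial carrier of the uncoupling protein branch, had signals of 364, 627 and 671 with coconut oil (lowest, median, highest) and of 182, 248 and 426 with beef tallow. The pigs fed coconut oil were high, and 5 of 6 lay above every pig fed beef tallow. The log2 difference of 1.09 ± 0.32 (SE, with 6 pigs each) did not pass (limma adjusted p = 0.0752). It was 1.24 in gilts and 0.94 in barrows.

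SLC25A1, which exports citrate from mitochondria for fatty acid synthesis, had signals of 483, 567 and 738 with coconut oil and of 681, 902 and 1510 with beef tallow. The coconut oil pigs were low, and 5 of 6 had less than any pig fed beef tallow. The difference was -0.64 ± 0.20 (limma adjusted p = 0.0888), -0.29 in gilts and -0.996 in barrows. SLC25A17, a carrier of coenzyme A and other cofactors in the peroxisome membrane, had signals of 285, 425 and 518 against 366, 681 and 1281. Here 5 of 6 pigs fed beef tallow lay above all fed coconut oil, and the difference was -0.81 ± 0.26 (limma adjusted p = 0.0917). These genes did pass in single runs: SLC25A17 and SLC25A30 without pig 2 (limma adjusted p = 0.042 and 0.0483) and SLC25A1 without pig 7 (0.0428). With limma's array weights 4 members passed, these 3 genes and the zinc carrier SLC30A5, which differed by -0.60 in that fit. The share of all tested probe sets that passed with array weights is not given here, so this count has no background beside it.

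SLC45A3, a sugar carrier first named prostein, had a median signal of 72.6 (highest 110.1) with coconut oil and of 117 (from 84.3 to 145) with beef tallow. It lay near the filter, and 11 of all 24 pigs fell below the filter's signal for it. The difference of -0.72 ± 0.21 had the smallest p of the members in this pair (limma adjusted p = 0.0717), while 2 weaker probe sets of the gene, below the filter, differed by 0.04 and 0.48. SLC38A10, a member of an amino acid carrier family, had the most negative difference of the members in this pair, -0.83 ± 0.30 (limma adjusted p = 0.137), with -1.30 in gilts and -0.35 in barrows. SLC31A2 and SLC30A5, of the metals, differed by -0.47 ± 0.15 and -0.53 ± 0.18, and 10 of 13 metal carriers had negative differences (median -0.21), 8 of 13 after median centring. SLC16A13 differed by -0.51 ± 0.18 and SLC16A3 by 0.66 ± 0.29 (limma adjusted p = 0.113 and 0.214).

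Of the 17 mitochondrial carriers 10 had positive differences between coconut oil and beef tallow, with a median of 0.04, and of the 10 amino acid carriers 7 did, with a median of 0.09. SLC1A5, the main glutamine carrier of many cells, differed by -0.37 ± 0.16 (limma adjusted p = 0.21), and in all 6 coconut oil pigs it was under the mean of the beef tallow pigs. The hexose class had a median of -0.22 with 8 of 12 negative, and its member SLC2A4 differed by 0.47. A weaker probe set of SLC2A4, above the filter, differed by -0.16.

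Fat cell markers and all fibroblast markers but COL3A1 (0.11) had negative differences in the same pair, with LEP at only -0.13. Of 6 tested fat cell markers 1, FABP4, fell with coconut oil and the list median was -1.12. Their summed signal lay between 6385 and 11546 with coconut oil and between 8167 and 38575 with beef tallow. Of 7 fibroblast and matrix markers 5 fell (median -0.71), with a summed signal of 20982 to 28488 with coconut oil and 26189 to 68334 with beef tallow. None of these markers lay below the filter. The part of these cells in the carrier values was not tested.

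**Figure D3:**
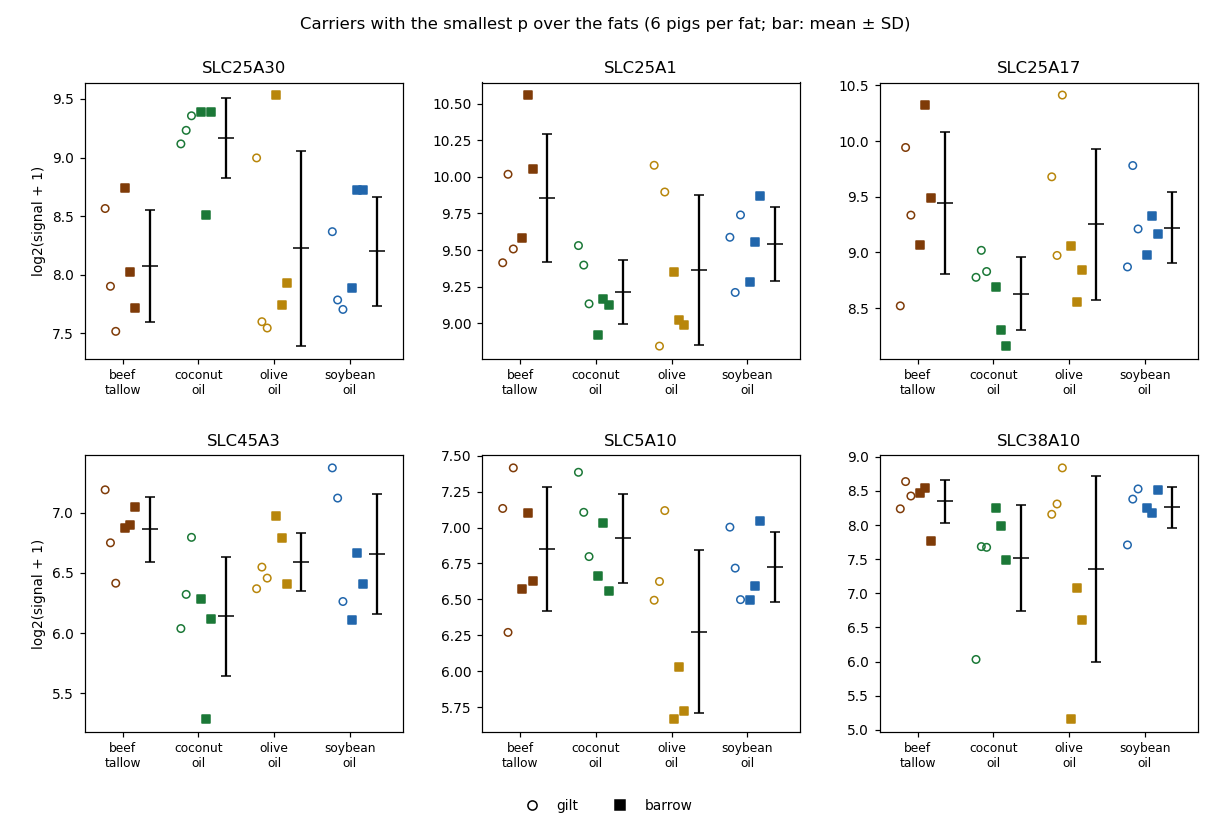
Log2(signal + 1) of 6 carriers with small p over the fats, by fat. Open circles are gilts, filled squares are barrows, and the bars show mean ± SD of 6 pigs. SLC25A30 sits high with coconut oil, SLC25A1, SLC25A17 and SLC45A3 sit low there, and for SLC5A10 and SLC38A10 the 3 barrows fed olive oil are the lowest of that fat. No difference between fats passed.

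The same coconut oil pigs enter the comparisons with the other oils. SLC25A30 had signals of 186, 228 and 740 with olive oil and of 208, 283 and 422 with soybean oil. Its differences from coconut oil were -0.94 ± 0.32 for olive oil and -0.97 ± 0.32 for soybean oil (limma adjusted p = 0.554 and 0.27). SLC25A17 differed by 0.62 ± 0.26 for olive oil minus coconut oil, and SLC25A36, a pyrimidine nucleotide carrier, by 0.56 ± 0.22 (limma adjusted p = 0.554 for both). Without pig 7, SLC25A36 differed by 0.35. For soybean oil minus coconut oil, SLC45A3 differed by 0.52 ± 0.21 and SLC31A2 by 0.38 ± 0.15. SLC2A4RG, a transcription factor that binds the promoter of SLC2A4, had signals of 606, 695 and 1048 with soybean oil and of 882, 997 and 1230 with coconut oil. In 5 of 6 soybean oil pigs it was under every coconut oil pig, and the difference was -0.46 ± 0.15 (limma adjusted p = 0.27). At an unadjusted p under 0.05 there were 7 members for olive minus coconut oil (8.43%, beside 8.85% of all tested probe sets) and 10 for soybean minus coconut oil (12.0%, beside 13.0%). The adjusted calls were 0% of all tested probe sets in both. Positive differences numbered 35 of 83 for olive minus coconut oil (42.2%, beside 49% of all tested probe sets) and 43 of 83 for soybean minus coconut oil (51.8%, beside 53.7%).

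In olive oil minus beef tallow the smallest p belonged to SLC38A10 and SLC5A10, a sodium-coupled carrier of sugars. SLC38A10 had signals of 34.8, 209 and 456 with olive oil, of 217, 348 and 397 with beef tallow and of 208, 318 and 368 with soybean oil. Its difference was -0.99 ± 0.30 for olive oil minus beef tallow and 0.90 ± 0.30 for soybean minus olive oil (limma adjusted p = 0.548 and 1.00). By sex these were 0.00 in gilts and -1.98 in barrows for the former, and -0.23 and 2.03 for the latter. SLC5A10 had signals of 49.9, 76.8 and 138 with olive oil and of 76.2, 117 and 169.7 with beef tallow. Its differences were -0.58 ± 0.19 against beef tallow, -0.65 ± 0.19 against coconut oil and, for soybean minus olive oil, 0.45 ± 0.19 (limma adjusted p = 0.594, 0.554 and 1.00). In gilts these were -0.19, -0.35 and -0.01, and in barrows -0.96, -0.94 and 0.90. It also had the smallest p of the members when olive and soybean oil were averaged against coconut oil and beef tallow, with -0.39 ± 0.13 (limma adjusted p = 0.987). In that test SLC2A4RG differed by -0.22, the riboflavin carrier SLC52A2 by 0.18 and SLC25A36 by 0.32.

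Further members with small p against beef tallow did not pass either. For olive oil, SLC25A1 differed by -0.49 ± 0.20 (-0.30 without pig 7) and SLC31A2 by -0.35 ± 0.15, but the weaker probe set of SLC31A2 differed by 0.66. For soybean oil, SLC25A38, the glycine carrier that feeds haem synthesis in mitochondria, differed by -0.43 ± 0.16, SLC46A1, the proton-coupled folate carrier, by -0.81 ± 0.35, SLC39A4, a zinc carrier, by -0.80 ± 0.41 and SLC46A3, a lysosomal carrier, by -0.47 ± 0.24 (limma adjusted p = 1.00 for each). SLC46A1 differed by -0.70 ± 0.35 and SLC22A5, the carnitine carrier, by 0.49 ± 0.21 for soybean minus olive oil. Pig 11, fed soybean oil, decided much of the SLC46A1 values: without it they were -0.41 against beef tallow and -0.30 against olive oil. Without this pig SLC39A4 differed by -1.26 from beef tallow. With the mean of a gene's probe sets, the differences from beef tallow were -0.17 for SLC25A38, -0.39 for SLC46A1 and -0.22 for SLC46A3. Unadjusted p under 0.05 were found for 4 members in olive oil minus beef tallow (4.82%, beside 6.44% of all tested probe sets) and 2 in soybean oil minus beef tallow (2.41%, beside 3.46%). There were 3 in soybean minus olive oil (3.61%, beside 3.18%) and 2 in olive and soybean oil averaged against the other fats (2.41%, beside 3.90%). The F test over the fats had 10 such members (12.0%, beside 11.6% of all tested probe sets), with SLC38A10, SLC25A30, SLC5A10 and SLC45A3 first (limma adjusted p from 0.259 to 0.32). Positive differences numbered 32 of 83 for olive oil minus beef tallow (38.6%, beside 41.8% of all tested probe sets) and 42 for soybean oil minus beef tallow (50.6%, beside 46.9%). They numbered 50 for soybean minus olive oil (60.2%, beside 56.5%) and 40 for the mean of olive and soybean oil against the other fats (48.2%, beside 48.4%). The adjusted calls in these 5 tests were 0% of all tested probe sets.

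Whether a fat difference depended on sex was asked with the interaction test, in which 5 of 83 members (6.02%) had an unadjusted p under 0.05 beside 6.22% of all tested probe sets, and none passed (0% of all tested probe sets). SLC38A10 had the smallest p (unadjusted p = 0.0007, limma adjusted p = 0.778). The 3 barrows fed olive oil had signals of 34.8, 96.2 and 134, and the 3 gilts fed olive oil 284, 316 and 456. These barrows were low and did not overlap with the gilts. With coconut oil 2 of 3 barrows lay above all gilts, with gilts at 64.4, 203 and 205 and barrows at 179, 252 and 302. With beef tallow the gilts had 301, 343 and 397 and the barrows 217, 353 and 372, and with soybean oil the values also overlapped.

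SLC35B3 and SLC35B2, which bring activated sulfate into the Golgi apparatus, and SLC1A1, a glutamate and cysteine carrier, followed (limma adjusted p = 0.778 each). SLC35B3 in the barrows fed olive oil had signals of 122, 155 and 170.2, below 230.4, 258 and 353 in the gilts fed that oil. SLC35B2 was ordered alike there, with 187, 236 and 264 in barrows and 286, 325 and 344 in gilts. SLC1A1 ran the other way, with 199, 271 and 305 in the barrows and 116, 131 and 134 in the gilts. For all 4 genes the sexes did not overlap with olive oil, in groups of 3 and for genes taken for a small interaction p, and for SLC1A1 they did not overlap with beef tallow either. The share of all tested probe sets that were parted in this way is not given here, so the separation is no result particular to these genes.

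**Figure D4:**
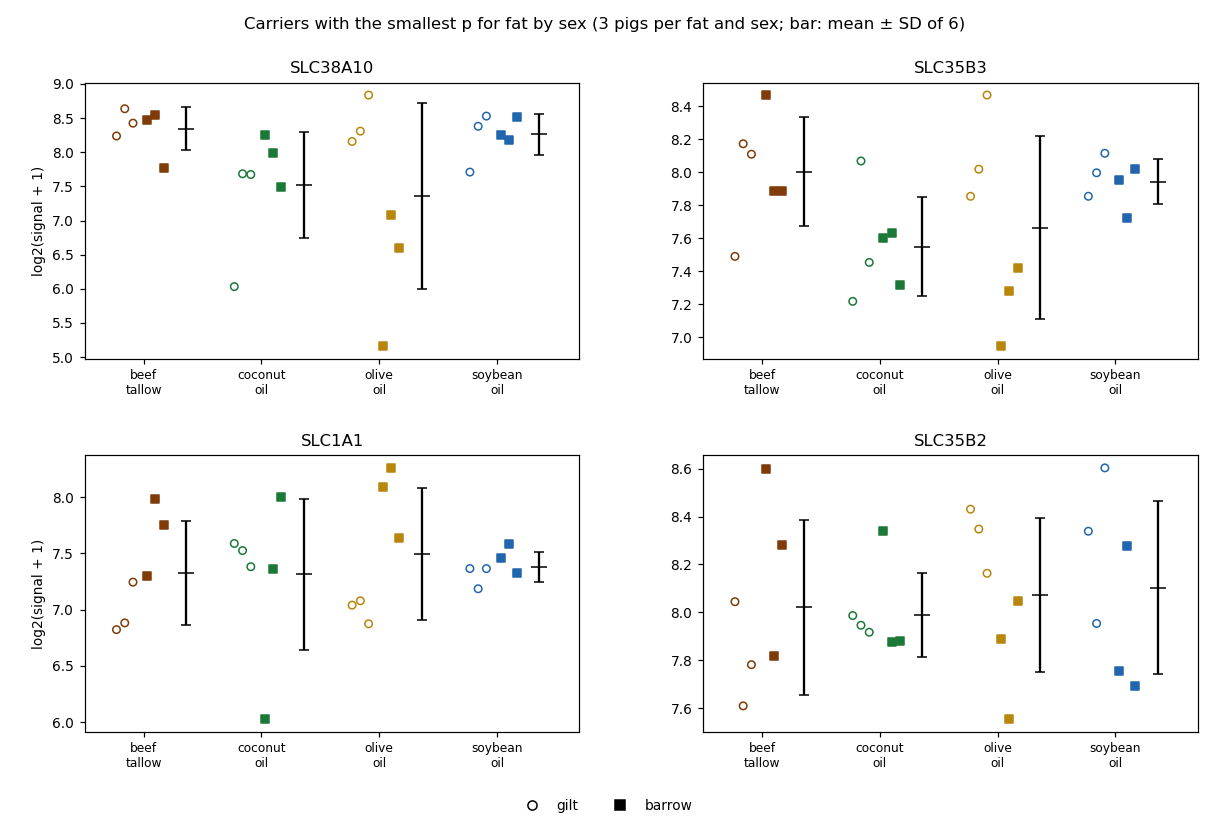
Log2(signal + 1) of the 4 members with the smallest p for the interaction of fat and sex. Open circles are gilts and filled squares barrows, 3 per fat, and the bars show mean ± SD of the 6 pigs of a fat. The sexes lie apart with olive oil in each panel, in genes chosen for this p, while no interaction passed (limma adjusted p = 0.778).

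The carriers that muscle energy supply is known for showed no called difference between fats. Levels follow in the order beef tallow, coconut oil, olive oil, then soybean, as mean ± SD of 6 pigs. SLC2A4 had log2 levels of 8.80 ± 0.26, 9.26 ± 0.59, 9.12 ± 0.57 and 9.09 ± 0.57. SLC2A1 had 7.39 ± 0.68, 7.02 ± 0.41, 7.06 ± 0.74 and 7.28 ± 0.35. SLC16A3 had 7.60 ± 0.73, 8.26 ± 0.38, 7.97 ± 0.86 and 8.14 ± 0.69, and its pigs overlapped between all fats. The fatty acid carrier SLC27A1 had 7.70 ± 0.39, 7.71 ± 0.53, 7.44 ± 0.65 and 7.48 ± 0.30.

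No mitochondrial exchanger named for muscle was called between fats. SLC25A4 had log2 levels of 14.60 ± 0.20, 14.70 ± 0.11, 14.55 ± 0.28 and 14.55 ± 0.18, and SLC25A3 had 14.56 ± 0.22, 14.76 ± 0.11, 14.64 ± 0.31 and 14.56 ± 0.18. SLC25A12 had 11.38 ± 0.22, 11.72 ± 0.33, 11.39 ± 0.54 and 11.48 ± 0.28. SLC25A5, another ADP and ATP exchanger, had 10.09 ± 0.31, 10.14 ± 0.31, 10.26 ± 0.63 and 10.31 ± 0.56. The groups of each of these genes overlapped. The creatine carrier SLC6A8 had 11.51 ± 0.33, 11.70 ± 0.27, 11.65 ± 0.35 and 11.67 ± 0.24.

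**Figure D5:**
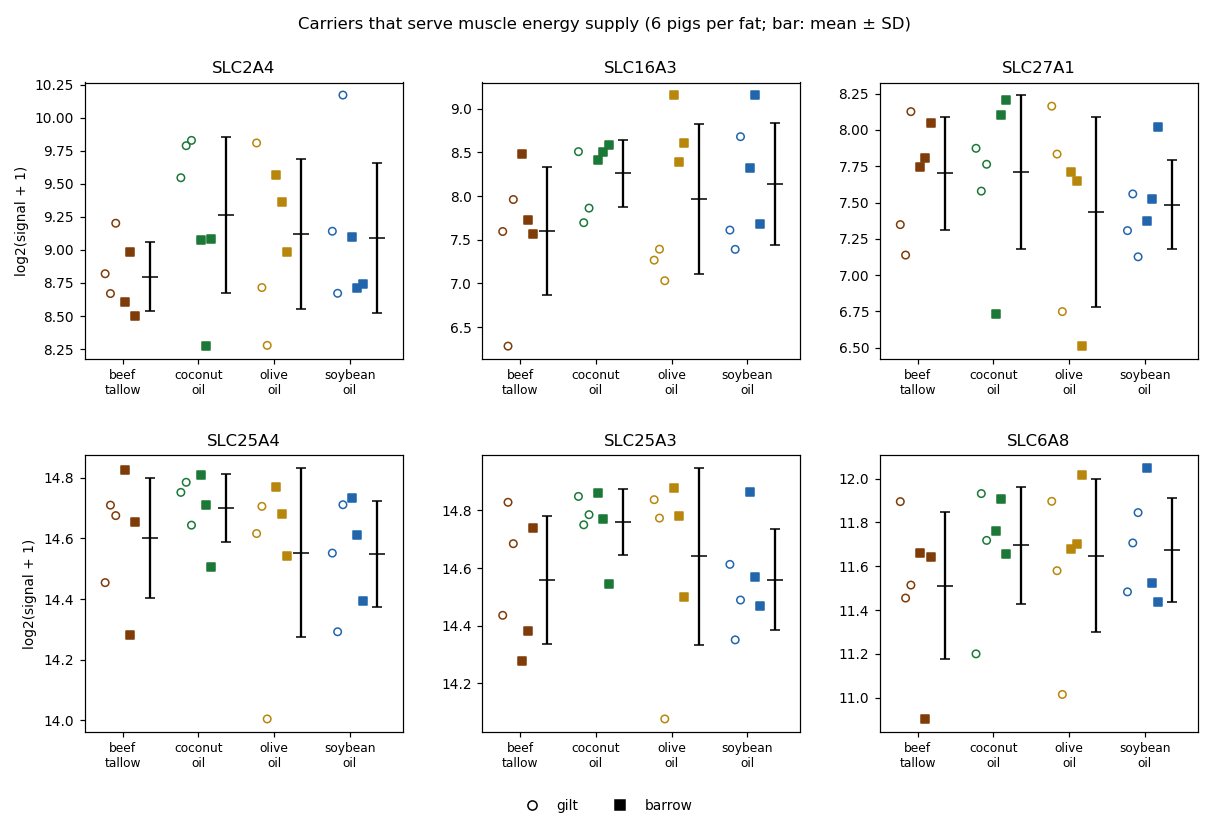
Log2(signal + 1) of 6 carriers that serve the energy supply of muscle, by fat. Open circles are gilts, filled squares are barrows, and the bars show mean ± SD of 6 pigs. The pigs of the 4 fats overlap in every panel. Levels of different genes are not comparable, because each probe set has its own response.

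Carriers of amino acids, carnitine, nucleosides and zinc named for muscle gave no call either. SLC3A2, the heavy chain shared by several amino acid exchangers, had log2 levels of 10.13 ± 0.34, 10.28 ± 0.43, 10.10 ± 0.50 and 10.01 ± 0.35. SLC1A5 had 10.07 ± 0.42, 9.70 ± 0.13, 10.04 ± 0.33 and 10.03 ± 0.22. SLC22A5 had 8.10 ± 0.14, 7.96 ± 0.62, 7.87 ± 0.41 and 8.36 ± 0.34. The nucleoside carrier SLC29A1 had 8.69 ± 0.22, 8.87 ± 0.23, 8.58 ± 0.34 and 8.86 ± 0.36, and the zinc and iron carrier SLC39A14 8.03 ± 0.33, 7.93 ± 0.60, 7.79 ± 0.43 and 7.85 ± 0.55.

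The members that stand for the other classes were not called between fats. The zinc carrier SLC39A1 had log2 levels of 9.52 ± 0.48, 9.23 ± 0.40, 9.40 ± 0.47 and 9.56 ± 0.34, and SLC44A2, a choline carrier, 9.82 ± 0.10, 9.95 ± 0.11, 9.90 ± 0.20 and 9.89 ± 0.23. SLC35F5 had 10.50 ± 0.73, 10.63 ± 0.19, 10.61 ± 0.19 and 10.73 ± 0.21, and its wide spread with beef tallow came with 1 low pig, number 16. SLC37A1, which exchanges glucose 6-phosphate for phosphate, had 7.02 ± 0.35, 7.18 ± 0.30, 7.15 ± 0.24 and 7.07 ± 0.47. The scaffold SLC9A3R2 had 10.43 ± 0.59, 10.21 ± 0.30, 10.60 ± 0.26 and 10.50 ± 0.24.

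How far members varied among themselves ran from an SD over all 24 pigs of 0.15 on the log2 scale, for SLC25A39, to 1.04, for the fructose carrier SLC2A5. The median over the 83 tested members was 0.42, beside 0.34 over all tested probe sets. SLC44A2 and SLC25A4 were among the steadiest (0.16 and 0.20), and SLC22A3, SLC38A10 and SLC39A4 among the most variable (1.02, 0.88 and 0.84).

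The filter kept 83 of 118 members, and 5345 of the 6765 genes on the array had a probe set that passed it. All 13 metal carriers passed the signal filter, as did 17 of 20 mitochondrial carriers, 12 of 15 of the hexose class and 11 of 14 carriers of nucleosides, nucleotide sugars and acetyl-CoA. Among carriers of amino acids and peptides 10 of 18 passed, of inorganic ions 5 of 11 and of organic cations and anions 4 of 8. Of 6 vitamin carriers 3 passed, of 3 phosphate and vesicle carriers 1, of 3 creatine and neurotransmitter carriers 1 and of 2 fatty acid carriers 1. Genes below the filter include SLC2A2, the glucose carrier of liver, SLC5A1, the sodium-coupled glucose carrier of intestine, SLC6A4, the serotonin carrier, and SLC8A1, a sodium and calcium exchanger. For SLC8A1 all 24 pigs lay below the filter's signal. Nearest to the filter, at a mean log2 level of 6.45, were SLC36A2 (6.32) and SLC25A14 (6.30) below it and SLC39A2 (6.48) and SLC7A7 (6.53) above it.

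No transport gene of a list with other names was called. This list of 49 genes held carriers without an SLC symbol, such as uncoupling proteins and mitochondrial pyruvate carriers, and partners of carriers, such as basigin and subunits of the sodium pump. Of these, 26 were named on the array and 21 were tested, and 0 of 21 passed in any pair of fats or between the sexes with limma. Of all tested probe sets 4.77% passed between the sexes, 1.12% for coconut oil minus beef tallow and 0% in the other pairs. With so few genes and such shares, the lack of calls is no result particular to this list. Their median difference was -0.05 between barrows and gilts and -0.06 for coconut oil minus beef tallow. BSG, the basigin that brings lactate carriers to the surface, differed by -0.18 between the sexes (limma adjusted p = 0.444), while SLC16A3 rose.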

How the data were processed

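Deposited values were probe set signals in linear intensity units from a 1-colour array with biotin label, and per the labels' protocols RNA was amplified with a 3' one-cycle kit. How probes were summarised was not stated in the labels. Over 24123 probe sets, every array had a mean of 500.1 to 500.2 once 2% was trimmed from either end, a common scaling that no label describes. Signals became log2(signal + 1). After leaving out 124 controls, the filter at the 40th percentile of mean log2 values (signal 86.3) kept 14399 probe sets for limma 3.58.1 (R 4.3.3, lmFit and eBayes, 8 group means, two-sided, Benjamini-Hochberg over all tested probe sets, threshold 0.05). The fit was checked on simulated independent normal values. The planted differences exceeded every tested member's difference between fats or sexes with all pigs, so smaller differences, pens and outlying arrays were not covered. Differences are on the log2(signal + 1) scale.

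Symbols came from the supplied platform annotation; 116 of 118 matched the RefSeq annotation of Sscrofa11.1 by gene identifier. Classes follow family numbers. Named were members past the threshold, the 4 smallest p of each test, the member of the highest mean signal in each class and 24 fixed muscle carriers, of which 9 are no members. Other genes given with values, such as SLC2A3, SLC30A5, SLC2A5 and BSG, were chosen after their values were seen. Members and lists were chosen with earlier results of these data known. Alternatives were no filter, quantile normalization, median centring, a pseudocount of 16, an additive model, array weights, the mean of a gene's probe sets, leaving out each pig, and, added after seeing the data, leaving out the 3 least correlated arrays.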

Additional observations from a re-analysis of the deposited data

Results flagged for a closer look

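For the 41 named genes, the highest or lowest of the 6 pigs of a fat was compared with its nearest neighbour, as the gap's share of the whole range on the log2 scale. In 14 of 164 such groups this share lay above 0.625, Dixon's limit for 6 values. Chance passes that limit in about 5% of groups whose 6 values come from 1 normal distribution. Each group here mixed 3 gilts and 3 barrows, so the 5% is not the chance rate of these groups. Lone low pigs were found for SLC8A1 with beef tallow (pig 16, share 0.805), a gene below the filter. Pig 16 also stood low for SLC35F5 (share 0.705, signal 542 against 1431 in the next pig). Pig 11, fed soybean oil, was low for SLC46A1 (share 0.73, signal 19.4 against 89.0), which moved the SLC46A1 difference from beef tallow from -0.41 without this pig to -0.81 with it, and high for SLC2A4 (share 0.687, signal 1152 against 564). Pig 12, fed olive oil, was low for SLC25A4 (share 0.703). With coconut oil, pig 15 was low for SLC1A1 (share 0.675) and high for SLC35B2 (share 0.758), pig 20 was low for SLC25A30 (share 0.688), pig 1 for SLC38A10 (share 0.659) and pig 23 for SLC25A3 (share 0.654). SLC41A1 had a lone high gilt with olive oil (pig 4, share 0.628, signal 1654 against 683) and with soybean oil (pig 3, share 0.677). Low pigs were also found for SLC25A38 with beef tallow (pig 10, share 0.632) and for SLC46A3 with olive oil (pig 7, share 0.638).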

How the results depend on the processing

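Over all alternatives the count of solute carrier genes past the threshold stayed at 0 for every pair of fats other than coconut oil minus beef tallow, for olive and soybean oil averaged against the other fats, and for both F tests (the interaction was not run in the additive model). For coconut oil minus beef tallow it was 4 with array weights and 0 to 2 when each pig was left out. For barrow minus gilt, 5 as reported, it was 2 without the signal filter, 11 with array weights and 3 to 7 when each pig was left out. The shares of all tested probe sets called in these runs are not given here. These counts therefore cannot be set beside a background and show no gain or loss particular to the members. The additive model, quantile normalization, median centring and a pseudocount of 16 left the same 5 genes. With the mean of a gene's probe sets SLC3A1 replaced SLC31A2 among 5 calls. The sign of 1 named difference reversed: SLC31A2 in olive oil minus beef tallow was 0.16 with the mean of its probe sets, which takes in the weaker one. No paired analysis was possible because no label links pigs of different groups. Running numbers only count the samples, and the pen of a sampled pig was not known here. The number of pigs and signals near the filter limit the precision.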

Other observations

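The fructose carrier SLC2A5 had the widest spread of the tested members, with signals from 45.3 (pig 7, fed olive oil) to 496 (pig 1, fed coconut oil). Its lowest, median and highest signals were 57.6, 295 and 496 with coconut oil, 86.7, 177 and 317 with beef tallow, 45.3, 161 and 328 with olive oil and 63.6, 148 and 459 with soybean oil. The groups overlapped throughout, and barrow minus gilt was -0.20 ± 0.37 (limma adjusted p = 0.805).

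Probe sets of the same carrier did not always run together. For SLC39A14 the probe set used differed by -0.10 for coconut oil minus beef tallow and another tested probe set by 0.26. The 2 tested probe sets of SLC39A1 gave -0.30 each, and the 3 of SLC44A2 lay between 0.04 and 0.13.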
